A study of Mus musculus with 20 samples.

Results

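The Ly49 receptors, encoded by the Klra genes, were followed across 20 single-cell libraries of thymic intraepithelial lymphocyte precursors (IELPs), the thymocytes that give rise to natural intraepithelial lymphocytes of the gut. Members were every gene whose symbol is Klra followed by digits. Of 8 genes listed for the family, 4 had a row in the tables used here (Klra1, Klra4, Klra7 and Klra10) and Klra3, Klra5, Klra6 and Klra9 had none. The rows Klra2 and Klra17 also met the rule, which gave 6 Ly49 genes among 25246 genes, and no row joined a Ly49 gene with another gene. CD4- and CD8-depleted, TCRαβ+ thymocytes of 1 mouse per genotype were index-sorted by CD122, the shared IL-2 and IL-15 receptor β chain, and by the ZsGreen reporter of the transcription factor T-bet. The TBGR mouse carried the T-bet reporter alone, was 4 weeks old and gave 2 libraries for each of 4 populations: CD122-T-bet- cells and, among CD122+ cells, those without (T-bet-), with intermediate (T-bet int) and with high reporter signal (T-bet high). The TBGR C-myc fl/fl mouse carried the reporter with floxed but undeleted C-myc alleles, was 2 weeks old and gave 4 libraries in which each held both T-bet- populations and 4 in which each held the T-bet int population and that of high signal. The TBGR C-myc D/DCd4 mouse, also 2 weeks old, had C-myc deleted through Cre driven by Cd4, which is active from the CD4+CD8+ stage, and gave 2 libraries each of the CD122-T-bet- and CD122+T-bet- populations.

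Ly49 proteins are lectin-like receptors of rodent natural killer (NK) cells that bind MHC class I molecules. Inhibitory members carry a cytoplasmic motif that recruits the phosphatases SHP-1 and SHIP, and activating members signal through the adaptor DAP12, encoded by Tyrobp. Each NK cell expresses a subset of the family chosen in part by chance, and Ly49 genes are also known from NKT cells, memory-like CD8+ T cells and intraepithelial lymphocytes. Klra1 encodes Ly49A and Klra7 encodes Ly49G, both inhibitory, while Klra4 encodes Ly49D, an activating receptor. RefSeq gives Ly49j as the older name of Klra10.

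Of 1920 sorted cells, 1413 had at least 2000 transcripts outside mitochondrial genes and spike-ins and were kept. They comprised 678 cells of the TBGR mouse, 470 of the C-myc fl/fl mouse and 265 of the C-myc D/DCd4 mouse, at a median of 5574, 5956 and 4604 transcripts per cell, and the totals per library ran from 233454 to 775264 transcripts. Libraries used 1 of 2 sets of 96 cell barcodes that shared none, and no 2 cells held identical values. The labelled cell type was checked against T cell markers, of which all 8 with a row were seen in every population and summed to between 3461 and 7356 counts per 1000000 transcripts (CPM). Ncr1, which encodes the NK cell receptor NKp46, was at 0 in all populations but the C-myc fl/fl T-bet high cells, where 3 cells held 3 transcripts. The 8 markers of NK and other innate lymphoid cells summed to 66.3, 157, 459.6 and 905 CPM along the 4 TBGR populations. Most of the T-bet high sum was Klrb1c, the gene of NK1.1, at 39.5 CPM in T-bet int cells and 563 in T-bet high cells. Eomes, like Ncr1, was at 0 in those T-bet high cells, so the last step of the sum does not speak for the list. Along the 4 TBGR populations 6 markers of γδ T cells summed to 561, 886, 1056 and 1336 CPM, those of NKT cells to 203, 261, 305 and 109, and those of CD4+CD8+ thymocytes to 708, 108, 126.1 and 135. Of the γδ markers, Trdc, Trdv4, Sox13 and Blk were at 0 in T-bet high cells, where the sum came from 2 γ chain constant genes alone. Myeloid markers summed to between 167 and 283 CPM and B cell markers to at most 15.5. In the C-myc fl/fl mouse NK markers summed to 50.6, 186, 329 and 746, γδ T cell markers to between 424 and 598, NKT markers to between 55.7 and 179.9, myeloid markers to between 55.6 and 104.6 and B cell markers to 8.64, 17.2, 48.2 and 18.6, while those of CD4+CD8+ thymocytes went from 275 to between 29.4 and 44.3. The part of such cells in the Ly49 levels was not tested. The study's methods describe an NK1.1- sort while the series' design text names NK1.1+ cells. Klrb1c was at 0, 10.9, 39.5 and 563 CPM along the 4 populations of the TBGR mouse. With 1 mouse per genotype no difference between populations or mice could be tested, so every value below is a sum over cells with an exact Poisson or binomial 95% interval, which covers counting error only, set beside the spread of the libraries.

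All 6 genes with a row lie on the minus strand of chromosome 6. In GENCODE M21 on GRCm38, Klra1 spans chr6:130363917-130386874, Klra10 chr6:130269194-130281928, Klra7 chr6:130218605-130233322 and Klra4 chr6:130043731-130067271. These genes, Klra17 and 5 protein-coding members without a row form a cluster of 10 genes over 555.7 kb (chr6:129831154-130386874), and Klra2 lies apart at chr6:131219223-131247362. The start regions of the 4 counted cluster genes are shown because the levels of these genes followed the sorted populations in different ways. The windows come from RefSeq on GRCm38.p6, run 5′ to 3′ from 250 bases before the start, and have in capitals each match to a T-box core (GGTGTG), a RUNX site (TGTGGT), a TCF/LEF site (CTTTGA), an ETS site (AGGAAG) or a TATA box (TATAAA) on either strand.
Klra1, chr6:130386825-130387124, minus strand: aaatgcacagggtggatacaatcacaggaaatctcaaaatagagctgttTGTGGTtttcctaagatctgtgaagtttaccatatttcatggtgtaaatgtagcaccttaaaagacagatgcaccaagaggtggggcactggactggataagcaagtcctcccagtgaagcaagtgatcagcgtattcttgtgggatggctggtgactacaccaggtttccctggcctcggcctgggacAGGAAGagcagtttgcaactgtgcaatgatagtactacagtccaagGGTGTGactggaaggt
Klra7, chr6:130233273-130233572, minus strand: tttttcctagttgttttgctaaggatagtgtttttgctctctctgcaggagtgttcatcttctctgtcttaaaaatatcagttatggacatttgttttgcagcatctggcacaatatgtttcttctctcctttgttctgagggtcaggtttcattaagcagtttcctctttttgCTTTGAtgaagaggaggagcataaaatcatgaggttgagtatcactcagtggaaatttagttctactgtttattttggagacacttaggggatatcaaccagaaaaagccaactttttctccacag
Klra10, chr6:130281879-130282178, minus strand: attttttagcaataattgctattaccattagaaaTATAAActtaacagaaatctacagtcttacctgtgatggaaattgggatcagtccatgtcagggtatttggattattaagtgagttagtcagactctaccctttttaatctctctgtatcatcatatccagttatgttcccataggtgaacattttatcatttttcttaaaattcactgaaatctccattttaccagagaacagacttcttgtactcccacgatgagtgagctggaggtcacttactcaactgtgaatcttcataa
Klra4, chr6:130067222-130067521, minus strand: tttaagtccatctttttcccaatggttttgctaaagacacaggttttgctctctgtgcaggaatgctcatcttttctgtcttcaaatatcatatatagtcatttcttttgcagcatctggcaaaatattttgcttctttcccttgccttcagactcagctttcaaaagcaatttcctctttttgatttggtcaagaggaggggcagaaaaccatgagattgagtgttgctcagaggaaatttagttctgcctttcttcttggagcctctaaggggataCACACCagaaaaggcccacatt
The Klra1 window held a T-box core that began at position 35 after the start, a RUNX match at -201 and an ETS match at -12. Klra7 held a TCF/LEF match at -76, Klra10 a TATA match at -216, and Klra4 a T-box core on the opposite strand at position 29, and no matches overlapped. Such matches are frequent: of 32851 windows of the same length over all genes, 6257 held the T-box, 5506 the RUNX, 5257 the TCF/LEF, 11613 the ETS and 4473 the TATA letters (35.4% for ETS and 13.6% for TATA at the extremes). Klra4 and Klra7 were 76.7% identical over these windows, while Klra1 was between 50% and 51% identical to the other 3, near the lowest of all 76 pairs of Ly49 windows, which ran from 48% to 90.3%. For Klra10 the RefSeq window was closest to the second listed start of Klra7, 66% identical, and not to the window of Klra7 shown, 53.3% identical. A run of 17 bases, AAGCAATTTCCTCTTTT, stood in the windows of Klra3, Klra4, Klra6, Klra8, Klra9 and Klra17, in 7 windows of all genes, and in none of those of Klra1, Klra7 or Klra10. Its last 11 bases, TTTCCTCTTTT, stood in windows of 8 Ly49 genes, among them Klra7 but not Klra1 or Klra10, and in 31 windows of all genes.

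The method counts 3′ ends, 1 per transcript, so levels were not divided by transcript length, but near-identical copies limit which gene a read can be given to. Over the last 600 bases of the annotated transcripts, 297 of 551 stretches of 50 bases in Klra10 were found in no other gene, with 134 shared with Klra9 and 104 with Klra3. For Klra1 the number was 500, with 51 shared with Klra4, for Klra4 it was 496, and for Klra7 between 401 and 452, the rest shared with the pseudogene Klra13-ps. Reads that matched several loci had been discarded, so such reads of Klra10 were not counted, and its assignment against Klra3 and Klra9, which had no row, is uncertain.

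Ly49 transcripts were higher at each step along the CD122 and T-bet axis in the TBGR mouse. Summed over the family, the level was 6.12 CPM in CD122-T-bet- cells (interval 2.25 to 13.3, libraries 10.3 and 2.01), 93.3 in CD122+T-bet- cells (78.3 to 110, libraries 147 and 33.2), 480.5 in T-bet int cells (443 to 520, libraries 382 and 583) and 1348 in T-bet high cells (1263 to 1436, libraries 1411 and 1221). No library of a population overlapped with those of the next. The log2 ratios of the 3 steps were 3.82, 2.36 and 1.49 after 0.5 transcripts were added to each sum. The CD122+T-bet- level was the least even, since library 1 was above library 2 by more than the counting intervals allow, and leaving out 1 library at a time gave 2.35 to 4.95 for the first step and 1.70 to 3.83 for the second, the latter without CD122+T-bet- library 1. In these sums, more cells with Ly49 and more Ly49 RNA per cell cannot be told apart, and the shares of cells given further on bear on that.

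The C-myc fl/fl mouse had lower levels in each CD122+ population and the same order of the populations. The family was at 6.17 CPM in CD122-T-bet- cells (interval 2.00 to 14.4, libraries 0, 9.30, 8.90 and 6.10), and 10.6 in CD122+T-bet- cells (4.56 to 20.8, libraries 0, 26.7, 4.51 and 10.6), at 94.1 in T-bet int cells (74.6 to 117, libraries 94.4, 121, 106 and 31.6) and at 640 in T-bet high cells (582 to 703, libraries 665, 712, 517 and 668). The first pair overlapped, with a log2 ratio of 0.72 (-1.02 to 2.73) that was -0.53 without CD122+T-bet- library 2, and the next steps of 3.08 and 2.76 were without overlap. Since T-bet high and T-bet int cells shared their 4 libraries, the last step could also be read within each, where it was 2.79, 2.55, 2.26 and 4.27. Age, genotype and library layout all differ between this mouse and the TBGR mouse and cannot be told apart, so the levels stand side by side without a ratio. Ratios are relative to the whole transcriptome, whose median ratio over genes with at least 100 transcripts was 0.28, -0.00 and -0.10 at the 3 TBGR steps and 0.47, 0.02 and -0.17 at those of the C-myc fl/fl mouse. Against these medians the family moved by 3.54, 2.36 and 1.59 in the TBGR mouse and by 0.25, 3.06 and 2.93 in the C-myc fl/fl mouse.

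**Figure D1:**
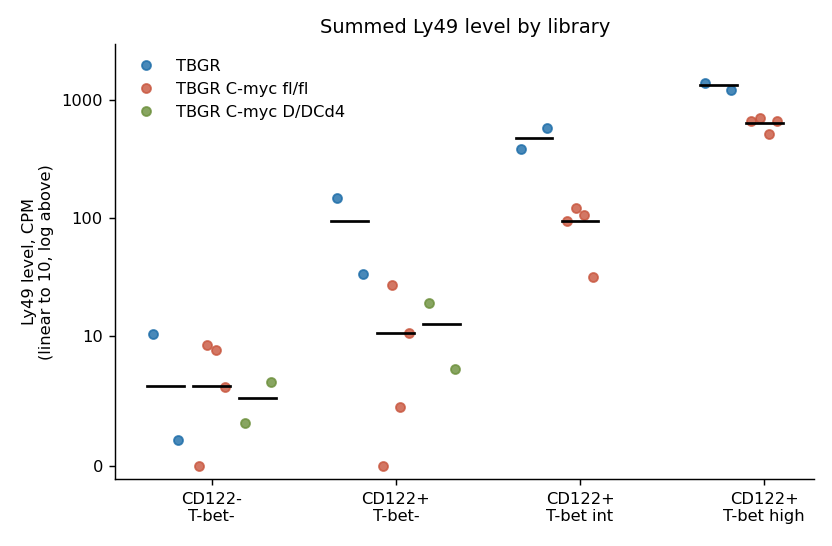
Summed Ly49 level in CPM (vertical axis, linear to 10 and logarithmic above) for each library (points) of each sorted population (horizontal axis) and genotype (colour), with black bars for all cells of the population together. In the TBGR mouse every library lies above those of the preceding population, and the C-myc fl/fl points lie lower from the CD122+T-bet- population on.

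Klra1, the gene of the inhibitory receptor Ly49A, was the leading Ly49 gene of the CD122+T-bet- gate in the TBGR and C-myc fl/fl mice. In the TBGR mouse it was at 1.02 CPM in CD122-T-bet- cells (libraries 2.07 and 0), 81.0 in CD122+T-bet- cells (interval 67.1 to 96.9, libraries 128 and 28.8), 187 in T-bet int cells (164 to 212, libraries 129 and 248) and 140 in T-bet high cells (114 to 171, libraries 163 and 94.2). Its level in T-bet high cells was not above that in T-bet int cells, where the libraries overlapped at a log2 ratio of -0.41 (-0.77 to -0.07), or -0.31 against the median of all genes. The step from CD122+T-bet- to T-bet int cells, 1.21 (0.89 to 1.54), was narrow in its libraries, 128 against 129 at the closest, and ranged from 0.55 without CD122+T-bet- library 2 to 2.67 without CD122+T-bet- library 1. Without T-bet int library 2 it was 0.67, so a change of at least 1 on the log2 scale rested on these libraries. A few cells carried much of the count, as 5 of 186 CD122+T-bet- cells held 71.4% of the 119 Klra1 transcripts and 5 T-bet int cells held 55.0% of 242. The C-myc fl/fl mouse had Klra1 at 0, 10.6, 49.4 (35.6 to 66.7) and 176 CPM (146 to 210), and T-bet high libraries at 156, 160, 204 and 191.9 stood above T-bet int libraries at 47.2, 67.0, 56.0 and 12.7. That step was 1.82 (1.32 to 2.37), and 1.69, 1.25, 1.80 and 3.63 within the 4 libraries.

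Klra7, which encodes the inhibitory receptor Ly49G, was found mainly in cells with T-bet. Its TBGR levels were 0 of 980381 transcripts in the CD122-T-bet- gate, for an upper limit of 3.06 CPM, 4.08 in CD122+T-bet- cells (1.499 to 8.89, libraries 6.45 and 1.44), 132 in T-bet int cells (112 to 153, libraries 95.5 and 169) and 160 in T-bet high cells (132 to 193, libraries 191 and 98.5). The last 2 populations overlapped, with a log2 ratio of 0.29 (-0.07 to 0.64) that ran from -0.39 to 0.74 when libraries were left out in turn. Both T-bet- populations of the C-myc fl/fl mouse held no Klra7 transcript, T-bet int cells were at 29.4 (19.02 to 43.4, libraries 34.3, 40.2, 24.9 and 6.33) and T-bet high cells at 174 (145 to 208, libraries 237, 140, 149 and 167). T-bet int cells were therefore at least 7.42-fold higher than CD122+T-bet- cells, set against 3 transcripts over the group, and the step to T-bet high was 2.55 (1.94 to 3.25), 1.77 to 4.17 within libraries. The 2 mice had T-bet high levels of Klra7 within each other's counting intervals, while their T-bet int levels lay apart.

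Klra10 was the Ly49 gene that differed most between T-bet high and T-bet int cells. It was at 4.08 and 6.13 CPM in the T-bet- populations of the TBGR mouse, which overlapped, at 153 in T-bet int cells (133 to 176, libraries 150 and 157) and at 1022 in T-bet high cells (948 to 1099, libraries 1027 and 1011). Both libraries of each T-bet+ population were thus nearly equal, and the last step had a log2 ratio of 2.73 (2.51 to 2.97). The step before, from CD122+T-bet- to T-bet int cells, was larger for Klra10, at 4.57. For the C-myc fl/fl mouse the values were 4.94, 0, 15.3 (8.14 to 26.1) and 284 CPM (246 to 327). The 4 T-bet high libraries, at 262, 411, 160 and 300.4, were spread more widely than in the TBGR mouse, but all lay above the T-bet int libraries at 12.9, 13.4, 24.9 and 12.7. The step from T-bet int to T-bet high was larger than that of any other Ly49 gene between these populations, 4.17 (3.41 to 5.15), with 4.14, 4.78, 2.54 and 4.27 within the libraries.

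Klra4, the gene of the activating receptor Ly49D, was scarce and had 36 transcripts in all. It was at 0, 1.36, 8.51 (4.25 to 15.2, libraries 7.58 and 9.49) and 25.5 CPM (15.1 to 40.4, libraries 29.7 and 17.1) in the TBGR mouse, and at 1.23, 0, 0 and 5.72 in the C-myc fl/fl mouse, the last from 4 transcripts in 4 cells. The TBGR step from T-bet int to T-bet high was 1.56 (0.42 to 2.81) without overlap. Tyrobp, whose product DAP12 carries the signal of activating Ly49 receptors, was at 2.04, 2.72, 14.7 and 19.9 CPM in the same TBGR populations. Klra2 had 3 transcripts and Klra17 had 1, too few for a level.

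**Figure D2:**
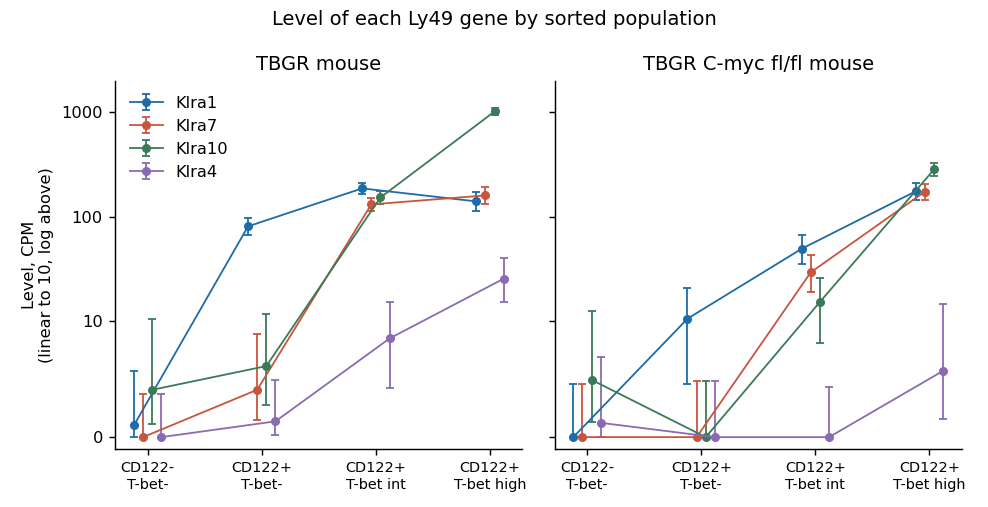
Level of each Ly49 gene in CPM (vertical axis, linear to 10 and logarithmic above) in the 4 sorted populations (horizontal axis) of the TBGR mouse and the C-myc fl/fl mouse. Points are sums over cells and bars are 95% Poisson intervals for counting error, and Klra1 is ahead of the other genes in CD122+T-bet- cells while Klra10 is ahead in T-bet high cells of both mice.

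The family's makeup turned over accordingly. Klra1 made up 86.9% of Ly49 transcripts in TBGR CD122+T-bet- cells (80.0 to 92.0), 39.0% in T-bet int cells (35.1 to 42.9) and 10.4% in T-bet high cells (8.55 to 12.5). Klra10 went from 6.57% (3.05 to 12.1) through 31.9% (28.2 to 35.7) to 75.8% (72.9 to 78.5), and Klra7 from 4.38% through 27.4% to 11.9%. In cells of the C-myc fl/fl mouse Klra1 held 52.5% in T-bet int cells and 27.5% in T-bet high cells, and Klra10 held 16.3% and 44.4%. Klra10 thus had a smaller part of the family in T-bet high cells of this mouse (39.8 to 49.2) than in those of the TBGR mouse.

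These moves were read against all genes under 1 rule, by which a gene counted as higher if the 2 groups held at least 20 of its transcripts, the log2 ratio was at least 1 and the libraries did not overlap. At the first TBGR step Klra1 was the only member with enough transcripts and was higher, where 14.3% of all 9262 genes were. From CD122+T-bet- to T-bet int, 3 of 3 members counted were higher (Klra1, Klra7 and Klra10) against 3.49% of 9461 genes. From T-bet int to T-bet high, 2 of 4 were higher (Klra4 and Klra10) against 7.93% of 8564 genes. In the C-myc fl/fl mouse 1 of 2 was higher at the step to T-bet int (Klra7, with Klra1 overlapping) against 0.562% of 7119 genes, and 3 of 3 at the step to T-bet high against 1.36% of 6908 genes. A gene that enters through the group in which it is high must differ, so the members' counts are a description, and no member was lower in any of these comparisons. Of all genes 3.92%, 6.94% and 11.7% were lower at the 3 TBGR steps and 0.506% and 2.58% at these 2 steps of the C-myc fl/fl mouse.

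Cells with a Ly49 transcript were more frequent at each step too. In the TBGR mouse at least 1 was seen in 4 of 174 CD122-T-bet- cells (2.30%, 0.63 to 5.78), 28 of 186 CD122+T-bet- cells (15.1%, 10.2 to 21.02), 92 of 171 T-bet int cells (53.8%, 46.0 to 61.4) and 121 of 147 T-bet high cells (82.3%, 75.2 to 88.1). With every cell thinned to 2000 transcripts the shares were 0.99%, 6.32%, 34.7% and 70.2%, in the same order. The median positive cell held 1 Ly49 transcript in CD122+T-bet- cells, 3 in T-bet int cells and 6 in T-bet high cells, and the richest held 40, 66 and 33. CD122-T-bet- cells serve as the level of cells that hardly express the family, at a median depth of 5118 transcripts, and the 5 C-myc fl/fl CD122-T-bet- cells with a Ly49 transcript (4.17%) each held 1. In that mouse the shares were 4.92% of 122 CD122+T-bet- cells, which is not above this background, 17.2% of 116 T-bet int cells (10.9 to 25.4) and 66.1% of 112 T-bet high cells (56.5 to 74.7), or 1.77%, 9.87% and 51.3% after thinning.

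By gene, most cells of the TBGR T-bet high gate held Klra10 and fewer held the others. Klra10 was seen in 119 of the gate's 147 cells (81.0%, 73.7 to 86.9), against 25 cells for Klra1 (17.0%), 33 for Klra7 (22.4%) and 13 for Klra4 (8.84%). After thinning the shares were 65.7% for Klra10, 10.7% for Klra1, 14.8% for Klra7 and 4.64% for Klra4. In T-bet int cells Klra10 was seen in 36.3%, Klra1 in 23.4% and Klra7 in 22.2%, or 20.6%, 13.0% and 13.0% after thinning. The median depth was 6348 transcripts in these cells and 4309 in T-bet high cells. From T-bet int to T-bet high the share of Klra7 was nearly level, that of Klra1 was lower with overlapping intervals (17.3 to 30.5 and 11.3 to 24.1), and that of Klra10 was higher. Among C-myc fl/fl T-bet high cells the 3 shares were closer, with Klra10 in 42.9% (33.6 to 52.5), Klra7 in 33.0% (24.4 to 42.6) and Klra1 in 25.9% (18.1 to 35.0).

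**Figure D3:**
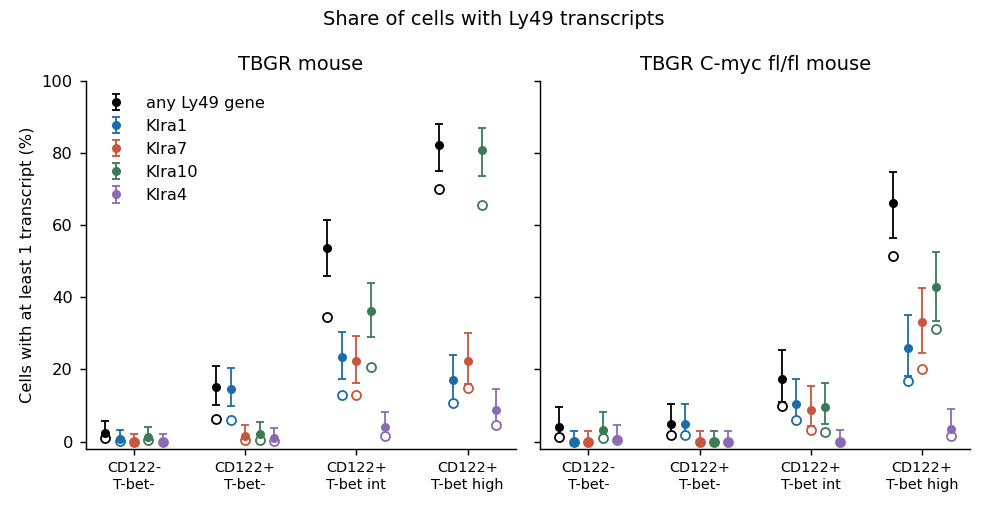
Share of cells with at least 1 transcript of any Ly49 gene or of each gene (vertical axis, percent) by sorted population (horizontal axis) in the TBGR mouse and the C-myc fl/fl mouse. Filled points with 95% binomial intervals are the cells as sequenced and open points are cells thinned to 2000 transcripts, with Klra10 at 81.0% and Klra1 at 17.0% in TBGR T-bet high cells.

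Within cells, several Ly49 genes were often found together. Among positive cells, 6 of 28 CD122+T-bet- cells (21.4%, 8.30 to 41.0), 40 of 92 T-bet int cells (43.5%, 33.2 to 54.2) and 48 of 121 T-bet high cells (39.7%, 30.9 to 49.0) of the TBGR mouse held 2 or more different Ly49 genes, and 1, 1 and 4 cells held all of Klra1, Klra4, Klra7 and Klra10. For the C-myc fl/fl mouse it was 10 of 20 T-bet int cells and 32 of 74 T-bet high cells (43.2%, 31.8 to 55.3). The most frequent make-up in TBGR T-bet high cells was Klra10 alone, in 71 cells, followed by Klra10 with Klra7 in 17 and with Klra1 in 11. Among CD122+T-bet- cells it was Klra1 alone, in 21, and all but 1 of the 28 positive cells held Klra1.

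Many cells were nevertheless dominated by 1 gene. Of 86 TBGR T-bet high cells with at least 3 Ly49 transcripts, 50 had at least 90% of them from 1 gene, which was Klra10 in each. Of 47 such T-bet int cells, 15 did, 7 led by Klra1 and 8 by Klra10, and of 53 C-myc fl/fl T-bet high cells 22 did, 14 led by Klra10, 4 by Klra1 and 4 by Klra7. No T-bet int cell of the TBGR mouse was dominated in this way by Klra7.

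Pairs of genes coincided in the same cells to different degrees. In TBGR T-bet int cells Klra10 was found in 22 of 38 cells with Klra7 (57.9%, 40.8 to 73.7) and 40 of 133 cells without it (30.1%, 22.4 to 38.6), at median depths of 7504 and 6305 transcripts. After thinning to 2000 transcripts the shares were 50.4% and 16.2%. Klra7 was found in 37.5% of cells with Klra1 and 17.6% of those without, 23.2% and 11.5% after thinning. In C-myc fl/fl T-bet high cells Klra7 was found in 18 of 29 cells with Klra1 (62.1%, 42.3 to 79.3) and 19 of 83 without (22.9%, 14.4 to 33.4), 37.2% and 16.5% after thinning, at depths of 6667 and 5429. The same pair in TBGR T-bet high cells was at 44.0% and 18.0%, 28.4% and 13.1% after thinning. For Klra7 and Klra10 in the C-myc fl/fl T-bet high cells the intervals overlapped widely, 48.6% with Klra7 and 40% without. Cells of a gate can differ in more than depth, and the part of such differences in these pairs was not tested.

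**Figure D4:**
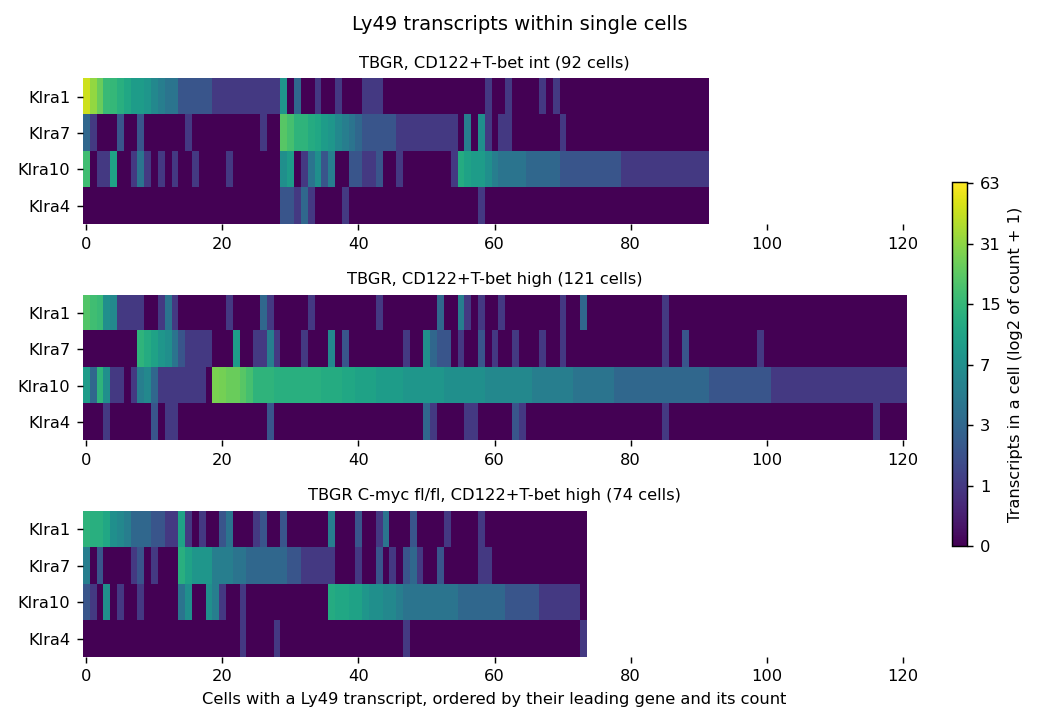
Transcripts of Klra1, Klra7, Klra10 and Klra4 (rows, colour on a log2 scale of the count plus 1) in every cell with a Ly49 transcript (columns), ordered by the leading gene and its count, for 3 gates. T-bet int cells of the TBGR mouse are led by Klra1, Klra7 or Klra10, whereas most of the 121 positive T-bet high cells are led by Klra10.

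Deletion of C-myc could be compared in the T-bet- populations alone, and the Ly49 genes were near the floor there. In CD122+T-bet- cells the family was at 12.6 CPM in the C-myc D/DCd4 mouse (5.74 to 23.8, libraries 19.1 and 7.47) and 10.6 in the C-myc fl/fl mouse, a log2 ratio of 0.24 (-1.30 to 1.82). In CD122-T-bet- cells the levels were 5.23 (1.42 to 13.4, libraries 3.35 and 6.43) and 6.17, a ratio of -0.21 (-2.57 to 1.98). A difference of the family was not detectable at this depth. Summed markers of other cells were higher in the CD122+T-bet- cells of the C-myc D/DCd4 mouse, with B cell markers at 120.01 CPM (libraries 15.9 and 202) against 17.2, γδ T cell markers at 1081.5 against 424, NKT markers at 264 against 150.5, NK markers at 258 against 186 and myeloid markers at 138 against 88.5. CD4+CD8+ thymocyte markers were at 99.1 against 35.6. T cell markers were higher as well, at 5487 against 4025, so the shift was not limited to markers of other cells. The part of other cells in these comparisons was not tested. Klra1 had 1 transcript in 137 CD122+T-bet- cells of the C-myc D/DCd4 mouse and 8 in 122 cells of the C-myc fl/fl mouse, a ratio of -2.42 (-8.39 to -0.02) in which 6 of the 8 came from 1 library and the libraries overlapped. Klra10 had 5 and 0 transcripts and Klra7 had 3 and 0, and all 3 Klra7 transcripts lay in 1 cell. Among the possible ligands, H2-D1 was at 1274 CPM in the CD122+T-bet- cells of the C-myc D/DCd4 mouse and 405 in those of the C-myc fl/fl mouse. B2m, H2-T23 and Tap1 were also higher among 5 MHC class I and peptide loading genes counted, which are not all ligands. The median log2 ratio of these 5 genes was 1.09 where that of all genes was 0.18. The share of all genes higher was not taken for this comparison, so the count is no result about these genes.

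The genes whose levels ran most like the family over the 28 points of a population in a library were AW112010, Klrd1, Ly6c2, Myo1f and Ccl5. Pearson's r of log2(CPM + 10) with the summed family was 0.940, 0.939, 0.927, 0.920 and 0.917 among 8141 genes, with Tbx21, the gene of T-bet, seventh at 0.907 and Il2rb, the gene of CD122, at rank 165 with 0.693. Klrd1 encodes CD94, the partner of the NKG2 receptors, and led the rankings for Klra7 (0.967) and Klra10 (0.952). Klra7 was also followed by Ccl5, Ly6c2, Cxcr3 and Klra10, and Klra10 by Samd3, Cxcr3, Ifng and Ifitm10. Klra1 ran closest to Klra7 (0.905), then Myo1f, Myl12b, AW112010 and Klrd1, and was less like Klra10 (0.812) than Klra7 was (0.926). The points share mice and libraries, follow the sort, and differ in depth, so these values are a description.

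Several other NK receptor genes were higher from T-bet int to T-bet high cells, where Klra10 was higher too. In the TBGR mouse Klra10 was also higher at the step before. From T-bet int to T-bet high in the TBGR mouse, 8 of 12 genes counted were higher (Klrb1c, Klrb1f, Klrc1, Klrc2, Klre1, Klri2, Klrk1 and Styk1) and 3 were lower (Klrb1a, Cd244 and Cd160), against 7.93% of all genes higher and 11.7% lower, with a median log2 ratio of 4.02 where that of all genes was -0.09. Klrc1, the gene of NKG2A, went from 2.32 to 343 CPM, and Klrk1, the gene of NKG2D, from 7.74 to 554.7. Klrd1 went from 2.04 in CD122+T-bet- cells to 320 in T-bet int and 560 in T-bet high cells. Of 8 counted in the C-myc fl/fl mouse, 3 were higher at the last step (Klrb1c, Klrd1 and Klrk1) and 1 was lower (Klrb1a), against 1.36% and 2.58% of all genes, and Klrc1 was at 15.7 CPM. At the steps into T-bet int cells 3 of 6 were higher in the TBGR mouse, against 3.49% of all genes, and 1 of 4 in the C-myc fl/fl mouse, against 0.562%. Klrb1a and Cd160 were higher at the first step, 2 of 2 counted, in both mice, where 14.3% of all genes were higher in the TBGR mouse and 5.39% in the C-myc fl/fl mouse, with 0.928% lower in the latter.

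Among signalling partners of the receptors, Hcst, the gene of the adaptor DAP10, was higher at both T-bet steps in both mice and reached 301 CPM in TBGR T-bet high cells. Tyrobp was higher from CD122+T-bet- to T-bet int cells in the TBGR mouse (2.30) and from T-bet int to T-bet high cells in the C-myc fl/fl mouse (2.16). No other of the 7 or 8 genes counted from that list, which holds the phosphatase genes Ptpn6, Ptpn11 and Inpp5d, was higher or lower at these T-bet steps. In the TBGR mouse 2 of 8 and then 1 of 8 were thus higher, against 3.49% and 7.93% of all genes, the latter count near that share. In the C-myc fl/fl mouse 1 of 7 and then 2 of 8 were higher, against 0.562% and 1.36% of all genes. Of 5 MHC class I and peptide loading genes counted, only H2-D1, which encodes a ligand, was higher from T-bet int to T-bet high cells in both mice, by 1.22 and 1.04. At that step 7.93% and 1.36% of all genes were higher. None of the 5 was higher at the steps before in these mice. Of 12 transcription factor and cytokine receptor genes counted at the last step, Tbx21 and Id2 were higher and Id3, Tcf7 and Lef1 were lower in both mice, with Stat5a also lower in the TBGR mouse. The counts were thus 2 higher and 4 lower in the TBGR mouse, where 7.93% of all genes were higher and 11.7% lower, and 2 and 3 in the C-myc fl/fl mouse, where 1.36% and 2.58% were. Tbx21 is 1 of the 2 higher genes in each mouse, and its direction was fixed by the sort, since its reporter set these gates. Tcf7, the gene of TCF-1, went from 533 to 65.3 CPM in the TBGR mouse and from 243 to 78.6 in the C-myc fl/fl mouse.

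Inside a gate, cells with a Ly49 transcript were set against those without, as a description since the readout itself chose them and deeper cells pass more easily. In TBGR T-bet int cells, the 92 positive cells (median depth 6616) held more Ccl5, a chemokine gene, than the 79 negative cells (5999), 496 against 123 CPM with a log2 ratio of 2.00 (1.63 to 2.41). Ly6c2 was 1.55, Fgl2 1.58, Klrb1c 1.49 and Klrd1 1.25 higher on that scale, and each held in both libraries. Genes of recent agonist signalling were lower, with Pdcd1, the gene of PD-1, at -1.20 (-1.72 to -0.70), Nr4a1, the gene of Nur77, at -1.38 and Egr2 at -1.80, also in both libraries. Il2rb was at -0.03 and Tbx21 at -0.41 (-1.17 to 0.36), but the gate was itself sorted on CD122 and the T-bet reporter, which limits such differences. Tbx21 rested on 32 transcripts in positive and 30 in negative cells, and was seen in 26.1% and 20.3% of them. Of the fixed lists, 4 of 9 counted genes of mature T-bet+ IELPs were at 1 or more and 1 was at -1 or less, the chemokine gene Xcl1 at -1.22 (-1.63 to -0.84), lower in both libraries. Of 6 genes of agonist-selected PD-1+ IELPs 3 were at -1 or less. Of all 7365 genes counted outside the family, 2.69% were at 1 or more and 2.66% at -1 or less.

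In TBGR CD122+T-bet- cells, where positive cells were few, the 28 with a Ly49 transcript held more transcripts of cell cycle genes. Of 6 such genes, 5 had a log2 ratio of at least 1 over the 158 negative cells, against 5.03% of 8051 genes counted (7.24% were at -1 or less), with Top2a at 1.80 (1.53 to 2.07) and Mki67 at 1.32 (1.03 to 1.59), higher in both libraries. The positive cells were deeper, with a median of 8534 against 6844 transcripts, and the part of depth in this was not tested. Trdc, the δ constant gene, had 0 transcripts in the positive cells and 96 in 29 negative cells, and Nr4a3 had 0 and 78. By list, 3 of 5 γδ T cell genes and 2 of 7 genes of agonist-selected PD-1+ IELPs were at -1 or less, and none at 1 or more. Nr4a1 was at -1.25 (-1.73 to -0.82), and it was lower in TBGR T-bet int cells too. The T-bet high gates did not share this. Of genes of agonist-selected PD-1+ IELPs, 1 of 3 was at 1 or more and none at -1 or less in TBGR T-bet high cells. In C-myc fl/fl T-bet high cells none of 4 was at either limit, and in C-myc fl/fl T-bet int cells 2 of 6 were at -1 or less. Ly6c2 at 1.93 rested on 15 transcripts in each set. Of 4 genes of mature T-bet+ IELPs counted, 1 was at 1 or more and 1 at -1 or less, and the same held for 4 NKT genes. In T-bet int cells of both mice and T-bet high cells of the C-myc fl/fl mouse none of the 6 cell cycle genes reached 1. In TBGR T-bet high cells 2 of 3 counted did, where 9.8% of all genes did and 4.74% were at -1 or less, Mki67 at 1.46 (-0.61 to 7.38) and Top2a at 1.52 (-0.54 to 7.44), each from 1 transcript in the negative cells and of mixed sign between libraries.

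In T-bet high gates other list genes stood apart, by counts that were often low. In the TBGR mouse Klre1, an NK receptor gene, was at 2.30 (1.08 to 4.37) and Ccl5 at 1.12 (0.55 to 1.81) in 121 positive against 26 negative cells, and Klrd1, Klrb1c and Ly6c2 were between -0.03 and 0.25. In the C-myc fl/fl mouse, with 74 positive and 38 negative cells, Klrd1 was at 1.24 (0.74 to 1.80), Tyrobp at 2.13 (0.66 to 4.67) and Tcf7 at 2.69 (1.27 to 5.22), the last from 52 against 3 transcripts, and Tcrg-C1 was at -1.17 (-1.58 to -0.76). The 20 positive C-myc fl/fl T-bet int cells had Ly6c2 at 1.82 and Ccl5 at 1.62, both of mixed sign between libraries. Of all genes counted 5.02% were at 1 or more and 3.2% at -1 or less in the C-myc fl/fl T-bet high gate, and 3.32% and 6.82% in its T-bet int gate. Of 8 T cell markers none was at 1 or more in any of these gates and 1 was at -1 or less, in C-myc fl/fl T-bet int cells, with list medians from -0.25 to 0.08.

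**Figure D5:**
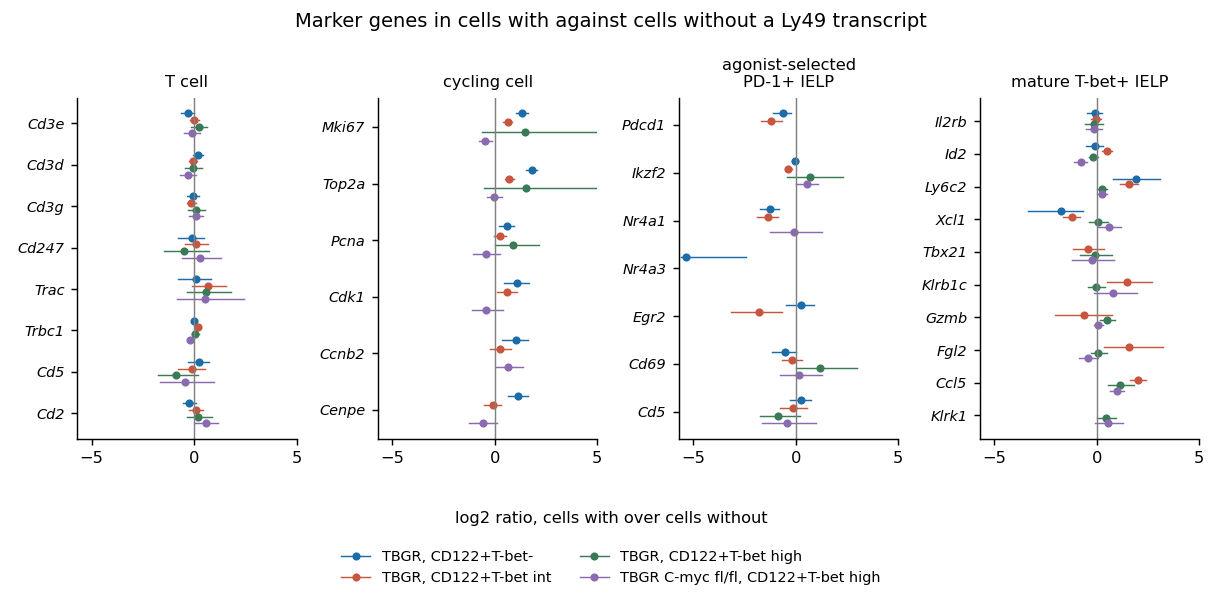
Log2 ratio of the level in cells with over cells without a Ly49 transcript (horizontal axis) for genes of 4 marker lists with at least 20 transcripts in the gate (rows), in 4 gates (colours), with bars for 95% counting intervals that may run past the axis. T cell markers lie near 0, cell cycle genes lie to the right in TBGR CD122+T-bet- cells, and Pdcd1, Nr4a1 and Egr2 lie to the left in TBGR T-bet int cells.

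The share of Ly49+ cells was also read from the side of the other genes. In TBGR T-bet int cells 67 of 97 cells with Klrd1 held a Ly49 transcript (69.1%, 58.9 to 78.1) against 25 of 74 without (33.8%, 23.2 to 45.7), 48.2% and 17.0% after thinning. In C-myc fl/fl T-bet high cells it was 64 of 82 (78.0%, 67.5 to 86.4) against 10 of 30 (33.3%, 17.3 to 52.8). The intervals overlapped in the other 2 gates with T-bet, at 85.1% (77.2 to 91.1) and 72.7% (54.5 to 86.7) in TBGR T-bet high cells and 31.8% (13.9 to 54.9) and 13.8% (7.57 to 22.5) in C-myc fl/fl T-bet int cells. For Tbx21 the intervals overlapped in each gate with T-bet, with 60% and 51.9% in TBGR T-bet int cells and 58.1% and 69.1% in C-myc fl/fl T-bet high cells with and without it. Tbx21 was sparsely counted, in 40 of 171 TBGR T-bet int cells, and these gates were sorted on its reporter.

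Cells below 2000 transcripts held Ly49 transcripts as well. In the T-bet high gate the 45 cells left out of the TBGR mouse held 57 Ly49 transcripts at 1394 CPM and the 80 left out of the C-myc fl/fl mouse held 72 at 1020 CPM. The latter was above the 640 of the cells kept.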

How the data were processed

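CD4- and CD8-depleted thymocytes were sorted into wells and sequenced by CEL-Seq2, which tags 3′ ends with a molecular identifier (UMI) of 6 bases. Per the study's methods, the authors aligned reads to GENCODE VM9 gene models, merged isoforms, discarded reads that matched several loci, and counted UMIs. The submitters' notes name BWA 0.6.2-r126 and bcl2fastq 2.17.1.14. The deposited values are estimated counts of transcripts per gene and cell, corrected for the 4096 possible UMIs and not normalized.

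Here they were rounded, spike-ins and mitochondrial genes were set aside, and cells with a sorted type and at least 2000 transcripts were summed per mouse, population and library (Python 3.11.15, numpy 2.4.6, pandas 2.3.3, scipy 1.17.1). Intervals are exact Poisson (sums) or Clopper-Pearson (shares) at 95%, and thinning used the expected value of the hypergeometric distribution. Ratios had 0.5 transcripts added. The code was tested on simulated data. With 1 mouse per genotype no test was made. No doublet caller was run, since single cells were sorted into wells.

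Groups follow the sample labels and the sorted type of each well. The members and the lists (other NK receptor genes, signalling partners, MHC class I and peptide loading genes, transcription factors and cell type markers) were chosen with earlier results of these data known. By the rule for named genes these were every Klra gene, the 5 genes most like the family and like each member of at least 100 transcripts, and list members of largest or smallest ratio. Further list members were named after their values were seen. Alternatives changed the minimum of transcripts per cell, rounding, the weight of cells, the added constant, scaling, depth, the gene filter and the libraries used.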

Additional observations from a re-analysis of the deposited data

Results flagged for a closer look

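Each library also held 96 barcodes to which no cell had been sorted. In TBGR T-bet high library 2 these held 4 Ly49 transcripts, above the 3 that a count of 0 allows, beside 339 in the sorted wells of that library. It also had the largest share of transcripts in such barcodes, 4.35% of the count in sorted wells, where all libraries together had 0.538%. Over all 20 libraries 1920 such barcodes held 8 Ly49 transcripts, and sorted wells held 2420. In 14 sets of 4 libraries no library stood apart from the others by Dixon's criterion, which chance meets in about 1 of 20 sets.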

How the results depend on the processing

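No step that was at least 1 on the log2 scale without overlap of libraries changed its sign. Leaving out a library cannot reverse such a step, so this bears on the other alternatives only. Under the alternatives 924 values moved by less than 1 SD between libraries or, for the background share, by less than 1.5 times, and 67 moved by more. Leaving out 1 of 2 libraries of like depth moves a level by less than their SD, so part of the 924 was fixed in advance. Thinning cells to 2000 transcripts gave Ly49+ shares of 6.32%, 34.7% and 70.2% in the 3 CD122+ populations of the TBGR mouse, from low to high T-bet, 9.87% and 51.3% in the 2 T-bet+ gates of the C-myc fl/fl mouse, and 0.598% in C-myc D/DCd4 CD122-T-bet- cells. The shares of positive cells with 2 or more genes were then 10.9%, 30.95% and 29.1% in the TBGR gates and 16.4% and 29.2% in the C-myc fl/fl gates. A mean over cells gave 2.99 CPM for the family in C-myc D/DCd4 CD122-T-bet- cells. With at least 100 transcripts asked of a gene, the shares of all genes called higher and lower were 9.07% and 2.37% at the first TBGR step, 2.07% and 2.70% at the second, and 0.317% and 0.0907% from CD122+T-bet- to T-bet int in the C-myc fl/fl mouse. With no condition on overlap they were 18.3% and 3.67%, 2.84% and 2.54%, and 3.27% and 7.31% at the 3 steps of the C-myc fl/fl mouse. For cells with against cells without a Ly49 transcript, a minimum of 100 gave 1.53% and 1.42% in TBGR CD122+T-bet- cells, 0.431% and 0.216% in T-bet int and 1.94% and 1.01% in T-bet high cells, and 0.188% and 0.469%, then 0.671% and 0.268%, in the same 2 gates of the C-myc fl/fl mouse. Leaving out 1 library at a time gave family log2 ratios of 1.21 to 1.82 at the last TBGR step and 2.56 to 2.99 at that of the C-myc fl/fl mouse, and 2.59 to 4.33 at its step into T-bet int cells, the highest without CD122+T-bet- library 2. Family levels were 1221 to 1411 CPM and 612 to 684 CPM in the T-bet high gates. With a constant of 0.1 the 14 ratios that moved all had a group at 0, so such ratios are no bound. No joined rows were found, so their alternative gave no value. No paired analysis was possible because no result comes from a test. The C-myc fl/fl populations that shared libraries were read within each library, 2.26 to 4.27 for the family at the last step. Depth limits the T-bet- gates, where a count of 0 allows 2.04 to 4.19 CPM.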
